A study of Mus musculus with 4 samples.

Results

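Glycolysis and the pentose phosphate pathway were examined through 33 genes, taken by symbol from the 24062 gene rows of the deposited count table. They comprise 24 genes of glycolysis and its side steps, 8 genes of the pentose phosphate pathway and Hif1a, and all 33 have a row. RNA came from gBT-I cells, CD8+ T cells with a transgenic receptor for a peptide (gB) of herpes simplex virus. In every group the donor was an SPF gBT-I mouse whose total splenocytes had been stimulated in culture with the gB peptide and LPS, then supplied with an interleukin (IL-1 in the labels) before intravenous injection. Recipients were C57BL/6 mice, either specific pathogen free (SPF) or raised germ free without a microbiota (GF), and the injected cells were sorted from the spleen on day 7. Each group has 2 libraries. Nothing in the labels ties a replicate to its own mouse, so a p-value here reflects the variation among these libraries, which may be technical. The values describe transgenic cells activated in culture and then kept in the host, and no other cell state was analysed here.

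Glycolysis converts glucose to pyruvate, and lactate dehydrogenase can turn that pyruvate into lactate. Hexokinase, phosphofructokinase and pyruvate kinase catalyse its irreversible steps. The pentose phosphate pathway branches off at glucose 6-phosphate. Its oxidative arm makes NADPH and its non-oxidative arm makes ribose phosphate for nucleotides. CD8 T cells are known to raise glycolysis and lactate output when they are activated and to lower both as they become memory cells. Hif1a encodes the oxygen-regulated subunit of the HIF-1 transcription factor, whose known targets include most glycolytic genes.

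Total counts ranged from 11544960 to 14431533 per library, and 3 counts, the most that a count of 0 allows, correspond to between 0.205 and 0.262 CPM, the count scaled to a fixed library total. The CD8 T cell gene Cd8a measured between 790.3 and 991.4 CPM. Of the other cell types checked, erythroid markers (led by Alas2) summed to between 1.20 and 2.86 CPM with 6 of 11 at 0 in all libraries, and neutrophil markers (led by S100a8) to at most 0.953 CPM with 3 of 8 at 0. B cell markers (15 of 15 detected, led by Cd79b) summed to 122.0 and 151.8 CPM in the SPF and GF replicates numbered 1, against 30.1 and 31.0 CPM in those numbered 2. NK cell markers (6 of 8 detected, led by Cd7) summed to 416.1 and 304.7 CPM in SPF and 207.5 and 218.3 CPM in GF. Sums for the remaining lists were 8.06 to 11.0 CPM for macrophages (led by Cd68), 69.0 to 109.0 CPM for CD4 and regulatory T cells (led by Zbtb7b) and 2.77 to 8.79 CPM for platelets (led by Itga2b). The part of other cell types in the results below was not tested. In bulk RNA, fewer cells with a transcript and less of it per cell cannot be told apart.

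The members spanned a wide range of levels, from 1.44 TPM for Pfkfb4 to 918.0 TPM for Gapdh as means over the 4 libraries (Eno1 aside). To compare genes with each other, counts were divided by the length of each gene's longest protein-coding transcript and rescaled to the library (TPM). Gapdh, the glyceraldehyde phosphate dehydrogenase, had the highest level at 868.9 to 944.1 TPM. Ldha, the lactate dehydrogenase A subunit, had 561.7 to 676.4 TPM and Aldoa, the main aldolase, 523.1 to 646.2 TPM, and their ranges overlapped. Pkm, the pyruvate kinase gene, followed at 379.2 to 511.6 TPM, Gpi1, the glucose phosphate isomerase, at 296.4 to 397.3 TPM, and Pgk1, the phosphoglycerate kinase, at 314.3 to 374.0 TPM. Taldo1, the transaldolase of the non-oxidative pentose phosphate arm, was the most abundant gene of that pathway at 243.9 to 296.2 TPM. At the low end were Hk2, Aldoc, Ldhb and Pfkfb4, with means of 6.01, 2.53, 1.95 and 1.44 TPM. The order depends on the length used: with the merged length of all annotated exons, Ldha had 456.9 to 564.4 TPM and Gapdh 442.8 to 486.8 TPM, so Gapdh was no longer first. Of the 50-base stretches of the Gapdh coding transcript 82.5% also occur in other genes. For Pgk1, Pkm, Gpi1, Ldha and Aldoa that figure was 68.0%, 34.4%, 25.3%, 16.6% and 13.5%. The part of shared reads in these levels was not tested.

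**Figure D1:**
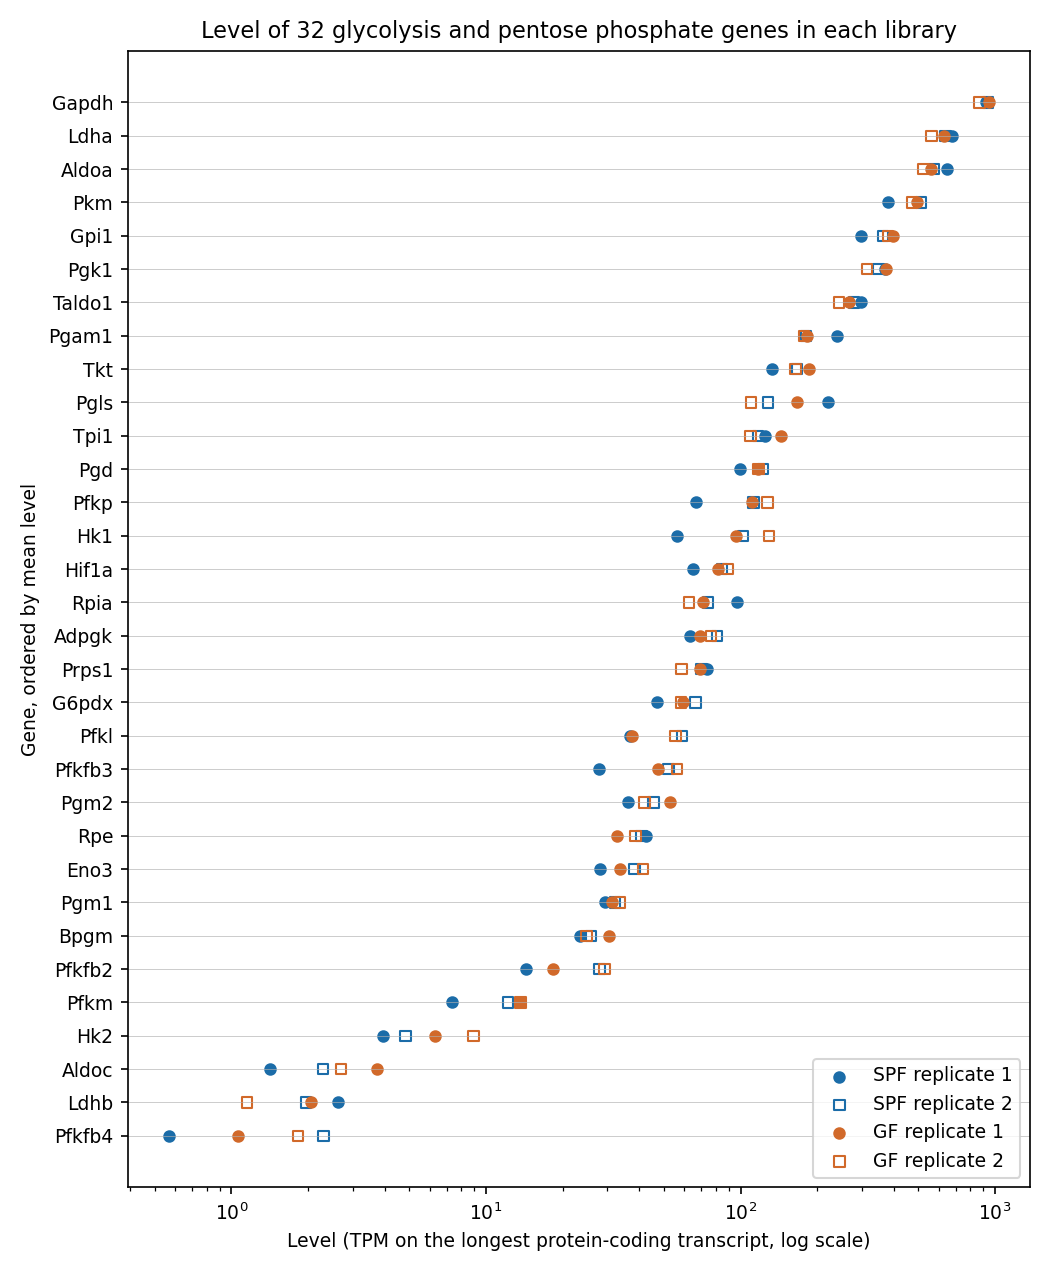
Level of each tested member in each library, as TPM on the longest protein-coding transcript (log axis), ordered by the mean. Circles are replicates numbered 1 and squares those numbered 2, blue for SPF and orange for GF, and Gapdh at the top lies between 868.9 and 944.1 TPM.

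For 3 members the row cannot be read as the level of the named enzyme. Eno1, the main enolase gene, had 0 counts in both SPF libraries and 3 and 2 counts in the GF libraries, which is at or below the limit of detection. In the annotation, 72.2% of the 50-base stretches of its 2027-nt coding transcript also occur in transcripts of other genes, most often those of Eno1b, and the RefSeq table lists Eno1 as an older symbol of Eno1b. The Eno1b row held 43 and 69 counts in SPF and 82 and 45 in GF. Gapdh shares 82.5% and Pgk1 68.0% of such stretches, and they had at least 6581 and 3059 counts in every library. How many reads any member lost to sharing was not tested. For Pgm1 and Pgm2, phosphoglucomutases that link glycogen and galactose breakdown to glucose 6-phosphate, RefSeq lists each symbol as an older name of the other gene, and the deposited rows carry no coordinates. The row named Pgm1 had 33.7 ± 3.2 CPM in SPF and 32.2 ± 0.2 CPM in GF, and the row named Pgm2 41.6 ± 0.1 and 44.4 ± 9.1 CPM (SD, n = 2 each).

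The comparison of GF with SPF recipients asks whether the microbiota of the host alters the expression of these genes in the transferred cells. It was made with edgeR's quasi-likelihood test with Benjamini-Hochberg adjustment over all 11271 genes that passed the filter on low counts, among them 32 of the 33 members (all but Eno1). No member passed at 0.05: 0 of 32 were called, against 0% of all tested genes, and 0 of 32 had an unadjusted p under 0.05, against 3.22% of all tested genes. DESeq2 also called 0 members, against 0.0799% of all tested genes in either direction, and limma-voom called 0, against 0%. The smallest unadjusted p of a member was 0.064, for Hk2. The adjusted p of the 32 members ran from 0.855 to 0.998 in the edgeR quasi-likelihood test. The members had a median log2 fold change of -0.06, against -0.0042 over all tested genes, with 13 higher and 19 lower in GF (49.7% and 50.3% of all tested genes). Both GF libraries lay above both SPF libraries for 6 of 32 members, against 16.8% of all tested genes, and below them for 2 of 32, against 16.4%. The 6 were Hk2, Gpi1, Pfkm, Pfkp, Aldoc and Hif1a, and the 2 were Adpgk and Rpe. With 2 libraries a group and the spread seen here, these results do not show that the members are alike in the 2 hosts.

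Hexokinases phosphorylate glucose on entry. Hk1 lies at chr10:62268855-62379908 and Hk2 at chr6:82725025-82774454 (GRCm38), both on the minus strand. Hk1, the broadly expressed form, measured 117.2 and 169.6 CPM in the SPF libraries and 167.2 and 210.8 CPM in the GF libraries, which overlap, with a log2 fold change of 0.40 (SE 0.27). That of Hk1 was 0.16 without SPF replicate 1 and 0.68 without SPF replicate 2. Hk2, the form known to be induced in activated T cells, measured 10.6 and 10.3 CPM in SPF and 14.1 and 18.8 CPM in GF. Both GF libraries were above both SPF libraries, with the SPF values close together and the GF values further apart. The log2 fold change of Hk2 was 0.66 (SE 0.28; edgeR quasi-likelihood adjusted p = 0.855). Hk1 was the main form in every library, at 7.8 and 11.5 times Hk2 in SPF and 8.3 and 7.8 times in GF per exonic length. On the length of the coding transcript those ratios were 14.3 and 21.2 in SPF and 15.2 and 14.4 in GF. The share of Hk2 in the pair was 11.4% (95% exact interval 9.59 to 13.4) and 8.0% (6.81 to 9.32) in SPF and 10.8% (9.45 to 12.2) and 11.3% (10.1 to 12.6) in GF. These intervals, and those that follow, cover counting error only. SPF replicate 2 alone was low, and the group means of 9.71% ± 2.42 and 11.1% ± 0.4 (SD, n = 2 each) differed by less than the spread in SPF (exact permutation test, two-sided p = 1). Without SPF replicate 2 the difference of 1.34 points turned to -0.36. The choice between hexokinases was thus not shown to differ between hosts, while the level of Hk2 had the highest log2 fold change among the members after Aldoc.

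Adpgk encodes an ADP-dependent glucokinase that acts in the endoplasmic reticulum of T cells. It measured 76.5 and 77.8 CPM in SPF and 70.1 and 72.6 CPM in GF. The GF libraries were both lower by a small margin, and the log2 fold change was -0.11 (SE 0.19). Gpi1 measured 415.2 and 405.5 CPM in SPF and 466.4 and 418.2 CPM in GF, with the 2 groups separated by less than the difference between the GF libraries. Its log2 fold change was 0.11 (SE 0.21).

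Phosphofructokinase commits fructose 6-phosphate to glycolysis and is a tetramer built from liver (Pfkl), muscle (Pfkm) and platelet (Pfkp) subunits. The genes lie at chr10:77986947-78010083 (Pfkl, minus strand), chr15:98092589-98132451 (Pfkm, plus strand) and chr13:6579768-6648777 (Pfkp, minus strand) of GRCm38. Pfkl measured 66.9 and 84.8 CPM in SPF and 56.8 and 78.9 CPM in GF, which overlap, with a log2 fold change of -0.16 (SE 0.26). Pfkm measured 10.3 and 13.6 CPM in SPF and 15.9 and 15.0 CPM in GF, with a log2 fold change of 0.37 (SE 0.28). Pfkp measured 134.6 and 180.4 CPM in SPF and 186.6 and 201.7 CPM in GF, with a log2 fold change of 0.30 (SE 0.23). Without SPF replicate 1 the log2 fold changes of Pfkm and Pfkp were 0.18 and 0.11, and without SPF replicate 2 they were 0.58 and 0.52. For Pfkm and Pfkp both GF libraries were the higher, and for Pfkl the order followed the replicate number.

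The make-up of the family was then taken as shares, in which a change common to all subunits cancels. A difference between libraries that follows length, described below, does not cancel. Exonic lengths were 13401 nt for Pfkp, 6675 nt for Pfkl and 3340 nt for Pfkm. With the length trend removed the log2 fold changes were 0.07 for Pfkp, -0.27 for Pfkl and 0.42 for Pfkm. The shares below keep that trend. Per exonic length, the Pfkl share was 43.3% and 42.0% in SPF against 31.3% and 37.7% in GF. The Pfkp share was 43.4% and 44.5% in SPF against 51.2% and 48.0% in GF, and the Pfkm share 13.3% and 13.5% against 17.5% and 14.3%. The groups did not overlap for any of the 3 subunits, with GF below SPF for Pfkl and above it for Pfkp and Pfkm. The shares of a family add up to the whole, so these are not 3 separate results. By CPM, both GF libraries lay above both SPF libraries for 16.8% of all tested genes and below them for 16.4%. No such background was taken for shares. For Pfkl the exact intervals were 41.2 to 45.4 and 40.3 to 43.7 in SPF and 29.6 to 32.98 and 36.1 to 39.3 in GF. Mean shares were 42.7% ± 0.9 and 34.5% ± 4.5 for Pfkl, 43.9% ± 0.8 and 49.6% ± 2.3 for Pfkp, and 13.4% ± 0.1 and 15.9% ± 2.2 for Pfkm (SPF and GF, SD, n = 2 each). The differences were -8.16, 5.64 and 2.52 points, each with an exact two-sided permutation p of 0.333, the smallest that 2 libraries against 2 can give, so the design cannot reach 0.05. Without GF replicate 1 the Pfkl and Pfkm differences were -4.96 and 0.932 points, and without GF replicate 2 they were -11.4 and 4.11. Pfkp stood at 1.00 and 1.06 times Pfkl in SPF and at 1.64 and 1.27 times in GF. On the coding transcript the ratios were 1.81 and 1.91 in SPF and 2.95 and 2.30 in GF. Pfkp was thus level with Pfkl in SPF on exonic length and clearly above it on the coding transcript. On the longest transcript of any type the Pfkl shares in SPF were 48.5% and 47.1%, above the Pfkp shares of 41.9% and 43.1%. In GF the Pfkl shares on that length were 36.1% and 42.7%, below the Pfkp shares of 50.9% and 46.8%. The leading subunit in SPF thus depends on the length used. Exons of Pfkp overlap those of Pitrm1 on the opposite strand over 748 nt, and the library kit does not mark strand. Pitrm1 measured 61.4 and 74.9 CPM in SPF and 44.3 and 64.6 CPM in GF, and its part in the Pfkp values was not tested.

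**Figure D2:**
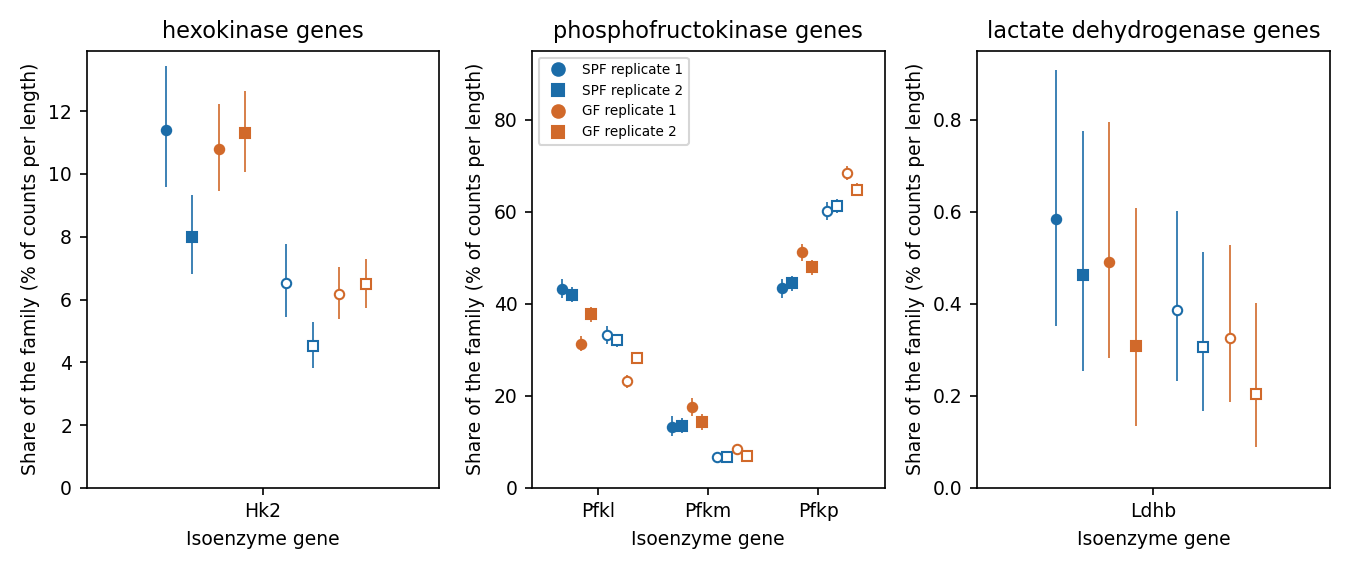
Share of Hk2, of the 3 phosphofructokinase subunits and of Ldhb in their families in each library, as a percentage of counts per length, with 95% exact intervals for counting error. Filled symbols use the exonic length and open symbols the coding transcript, blue is SPF and orange GF, and the Pfkl shares of GF (31.3% and 37.7%) lie below those of SPF (43.3% and 42.0%).

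The Pfkfb enzymes make and degrade fructose 2,6-bisphosphate, an activator of phosphofructokinase. Pfkfb3, the form with the strongest kinase activity, measured 64.7 and 97.0 CPM in SPF and 92.4 and 103.4 CPM in GF, with a log2 fold change of 0.28 (SE 0.27). Pfkfb2 measured 30.8 and 47.8 CPM in SPF and 33.1 and 49.3 CPM in GF, and Pfkfb4 between 0.961 and 3.11 CPM, from 11 to 44 counts. SPF replicate 1 was the lowest library for all 3 genes, and without it the log2 fold change of Pfkfb3 was 0.015, against 0.59 without SPF replicate 2. Pfkfb3 was the main form, at 1.95 to 2.68 times Pfkfb2 per exonic length. Exons of Pfkfb2 overlap those of Gm29427 on the same strand over 1262 nt and of Yod1 on the opposite strand over 154 nt. The part of these overlaps in the ratio was not tested.

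Aldolase splits fructose bisphosphate, and Tpi1 interconverts its 2 products. Aldoa measured 486.1 and 344.5 CPM in SPF and 354.3 and 309.3 CPM in GF, with a log2 fold change of -0.32 (SE 0.26). Only SPF replicate 1 stood apart, and the other 3 libraries lay within 309.3 to 354.3 CPM. Without SPF replicate 1 the log2 fold change of Aldoa was -0.053, and without SPF replicate 2 it was -0.56. Aldoc, the brain form, had 22 and 35 counts in SPF and 62 and 40 in GF, or 1.92 and 2.47 against 4.24 and 2.86 CPM. Its log2 fold change of 0.69 (SE 0.42) was the largest of all members, ranging from 0.37 without GF replicate 1 to 0.94 without GF replicate 2, but Aldoa remained 93.8 to 283.5 times as abundant per exonic length. Tpi1 measured 97.5 and 72.8 CPM in SPF and 94.1 and 67.2 CPM in GF, and thus followed the replicate number.

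The payoff steps from Gapdh to Pkm make ATP and NADH. Gapdh measured 635.7 and 515.2 CPM in SPF and 545.7 and 471.0 CPM in GF, with a log2 fold change of -0.18 (SE 0.24). Pgk1 measured 326.4 and 246.1 CPM in SPF and 277.8 and 218.9 CPM in GF, a log2 fold change of -0.20 (SE 0.26). Pgam1, the phosphoglycerate mutase, measured 205.9 and 124.0 CPM in SPF and 132.0 and 120.1 CPM in GF, a log2 fold change of -0.39 (SE 0.30). In all 3 genes SPF replicate 1 was the highest and GF replicate 2 the lowest library, and SPF replicate 2 lay between the GF libraries. Without SPF replicate 1 the log2 fold changes of Gapdh, Pgk1 and Pgam1 were -0.018, 0.0145 and 0.025, and without SPF replicate 2 they were -0.33, -0.40 and -0.71. Pkm had nearly equal means, 464.8 ± 23.9 CPM for SPF against 464.3 ± 37.0 CPM for GF, and a log2 fold change of -0.0016 (SE 0.21). The counts do not separate its splice forms M1 and M2. Eno3, the muscle enolase, measured 22.2 ± 1.4 and 23.0 ± 2.3 CPM. Bpgm, which makes the 2,3-bisphosphoglycerate of red cells, measured 23.7 ± 2.1 and 24.3 ± 4.5 CPM, in libraries where erythroid markers were at most 2.86 CPM in sum.

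Lactate dehydrogenase is a tetramer of A and B subunits, of which A favours the making of lactate. Ldha lies at chr7:46841475-46855627 on the plus strand and Ldhb at chr6:142490249-142507957 on the minus strand (GRCm38). Ldha measured 596.3 and 448.4 CPM in SPF and 466.8 and 389.2 CPM in GF, with a log2 fold change of -0.29 (SE 0.25). Ldhb had 19 and 14 counts in SPF and 16 and 8 in GF, or 1.66 and 0.989 against 1.09 and 0.573 CPM, with a log2 fold change of -0.65 (SE 0.59). Both genes overlapped between groups. Without SPF replicate 1 the log2 fold changes of Ldha and Ldhb were -0.066 and -0.24, and without SPF replicate 2 they were -0.49 and -0.99. Ldha outnumbered Ldhb 170.4 and 215.0 times in SPF and 202.6 and 322.4 times in GF per exonic length. The Ldhb share was 0.583% (95% exact interval 0.352 to 0.909) and 0.463% (0.253 to 0.775) in SPF, and 0.491% (0.281 to 0.796) and 0.309% (0.134 to 0.608) in GF. All 4 intervals overlap, and the difference of -0.12 points had an exact two-sided permutation p of 0.667.

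The near-exclusive use of Ldha was the most lopsided isoenzyme choice of the 3 families, so the upstream sequences of the pair are shown. They are the 250 bases before a RefSeq start site (GRCm38.p6), 5′ to 3′ on the gene's own strand, with each ACGTG or GCGTG, the core letters bound by HIF-1, in capitals on either strand (CACGT and CACGC are the same motifs on the opposite strand).
Ldha, chr7:46845554-46845803, plus strand: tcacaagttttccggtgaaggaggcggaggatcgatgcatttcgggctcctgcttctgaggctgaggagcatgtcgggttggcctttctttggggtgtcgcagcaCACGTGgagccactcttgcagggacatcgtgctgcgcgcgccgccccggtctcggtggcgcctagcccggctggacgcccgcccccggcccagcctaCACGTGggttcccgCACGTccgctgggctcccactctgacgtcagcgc
Ldhb, chr6:142507958-142508207, minus strand: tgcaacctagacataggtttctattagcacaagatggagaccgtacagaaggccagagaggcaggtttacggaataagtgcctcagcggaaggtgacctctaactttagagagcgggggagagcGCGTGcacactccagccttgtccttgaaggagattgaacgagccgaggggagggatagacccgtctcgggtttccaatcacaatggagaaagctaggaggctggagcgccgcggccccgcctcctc
Ldha has 5 matches in this stretch, 4 of them from a pair of CACGTG palindromes that read as ACGTG on both strands, and Ldhb has 1. RefSeq gives Ldha a second start site whose upstream stretch has 1 match. Over the whole windows, which add 50 bases after the start, 37 of 46 promoters of 31 members (80.4%) hold ACGTG or GCGTG. The share was 62.5% over 10812 promoters of tested genes and 43.8% over all 32851 RefSeq promoters. For ACGTG alone the shares were 41.3%, 26.0% and 19.6%. The motif searches used both strands, and a match describes letters only, not a bound site. Pgm1 and Pgm2 were left out of the search.

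Hif1a itself measured 149.2 and 154.4 CPM in SPF and 157.1 and 161.1 CPM in GF. It was among the steadiest members, with GF above SPF in both libraries by a log2 fold change of 0.07 (SE 0.19). Transcript level says nothing of HIF-1 protein, which is controlled by degradation.

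In the oxidative pentose phosphate arm, G6pdx, the glucose 6-phosphate dehydrogenase that sets its flux, had 64.5 ± 5.4 CPM for SPF against 61.7 ± 3.7 CPM for GF (SD, n = 2 each). Pgd, the 6-phosphogluconate dehydrogenase, measured 105.9 ± 1.1 and 102.8 ± 4.3 CPM. The log2 fold changes were -0.07 (SE 0.20) and -0.04 (SE 0.19). Pgls, the lactonase between them, measured 113.6 and 52.7 CPM in SPF and 72.3 and 44.4 CPM in GF. Both libraries numbered 1 were above both numbered 2, and the log2 fold change was -0.51 (SE 0.44). Without SPF replicate 2 Pgls passed the edgeR quasi-likelihood test (log2 fold change -0.97, adjusted p = 0.0196, where 4.7% of all tested genes were called lower), and without SPF replicate 1 its log2 fold change was 0.15. Each of those fits leaves SPF with a lone library, which is assumed to vary like the other group. B cell markers, given above, were also higher in the libraries numbered 1, and exons of Pgls overlap 776 nt of Fam129c on the same strand. Fam129c (chosen after its values were seen) measured 8.56 and 6.43 CPM in SPF and 9.22 and 9.73 CPM in GF. The part of either in the Pgls values was not tested. Exons of G6pdx overlap those of Ikbkg on the opposite strand over 418 nt. Ikbkg (chosen after its values were seen) measured 72.4 and 99.8 CPM in SPF and 100.6 and 105.4 CPM in GF. Its part in the G6pdx values was not tested.

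In the non-oxidative arm, transketolase and transaldolase exchange carbon units between sugars, and Rpia and Rpe interconvert the pentose phosphates. Tkt measured 208.1 and 207.4 CPM in SPF and 242.7 and 202.5 CPM in GF, with a log2 fold change of 0.10 (SE 0.21). It was the one member of the pentose phosphate pathway with a higher mean in GF, and only GF replicate 1 was above SPF. Taldo1 measured 195.9 and 147.2 CPM in SPF and 148.1 and 126.8 CPM in GF, a log2 fold change of -0.32 (SE 0.24). Rpia, the ribose phosphate isomerase, measured 86.0 and 52.6 CPM in SPF and 53.0 and 43.8 CPM in GF, a log2 fold change of -0.52 (SE 0.30). For both, SPF replicate 1 was high and the other SPF library was within about 1 CPM of GF replicate 1. Rpe, the ribulose phosphate epimerase, measured 55.8 and 43.0 CPM in SPF and 36.3 and 40.0 CPM in GF, with no overlap and a log2 fold change of -0.37 (SE 0.23). Prps1, which turns ribose phosphate into the nucleotide precursor PRPP, measured 70.2 and 53.5 CPM in SPF and 55.4 and 43.9 CPM in GF, a log2 fold change of -0.32 (SE 0.25). None of these passed the test. Without SPF replicate 1 the log2 fold changes of Taldo1, Rpia, Rpe and Prps1 were -0.098, -0.12, -0.17 and -0.11, and without SPF replicate 2 they were -0.52, -0.84, -0.56 and -0.51.

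As a pathway, 7 of the 8 pentose phosphate genes had lower GF means (median log2 fold change -0.32), where 50.3% of all tested genes had lower means. Rpe alone among these 8 had non-overlapping groups, with GF below, against 16.4% of all tested genes below and 16.8% above. Exons of Rpe overlap those of Kansl1l on the opposite strand over 558 nt, and the part of Kansl1l was not tested. The 23 tested glycolysis genes had 11 higher and 12 lower means and a median of -0.0016. Summed per exonic length, the pentose phosphate genes made up 19.5% and 18.7% of the transcripts of both pathways in SPF and 18.4% and 17.8% in GF. The glycolysis sum uses the Eno1 row, which cannot be read as that enzyme's level, so the main enolase is in effect missing from it. The 4 shares lay close together, and GF minus SPF was -0.97 points (means 19.1% ± 0.6 and 18.1% ± 0.4, SD, n = 2 each), or -0.573 points without SPF replicate 1. On the longest protein-coding transcript they were 19.9% and 18.2% in SPF and 18.5% and 17.4% in GF, which overlap.

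**Figure D3:**
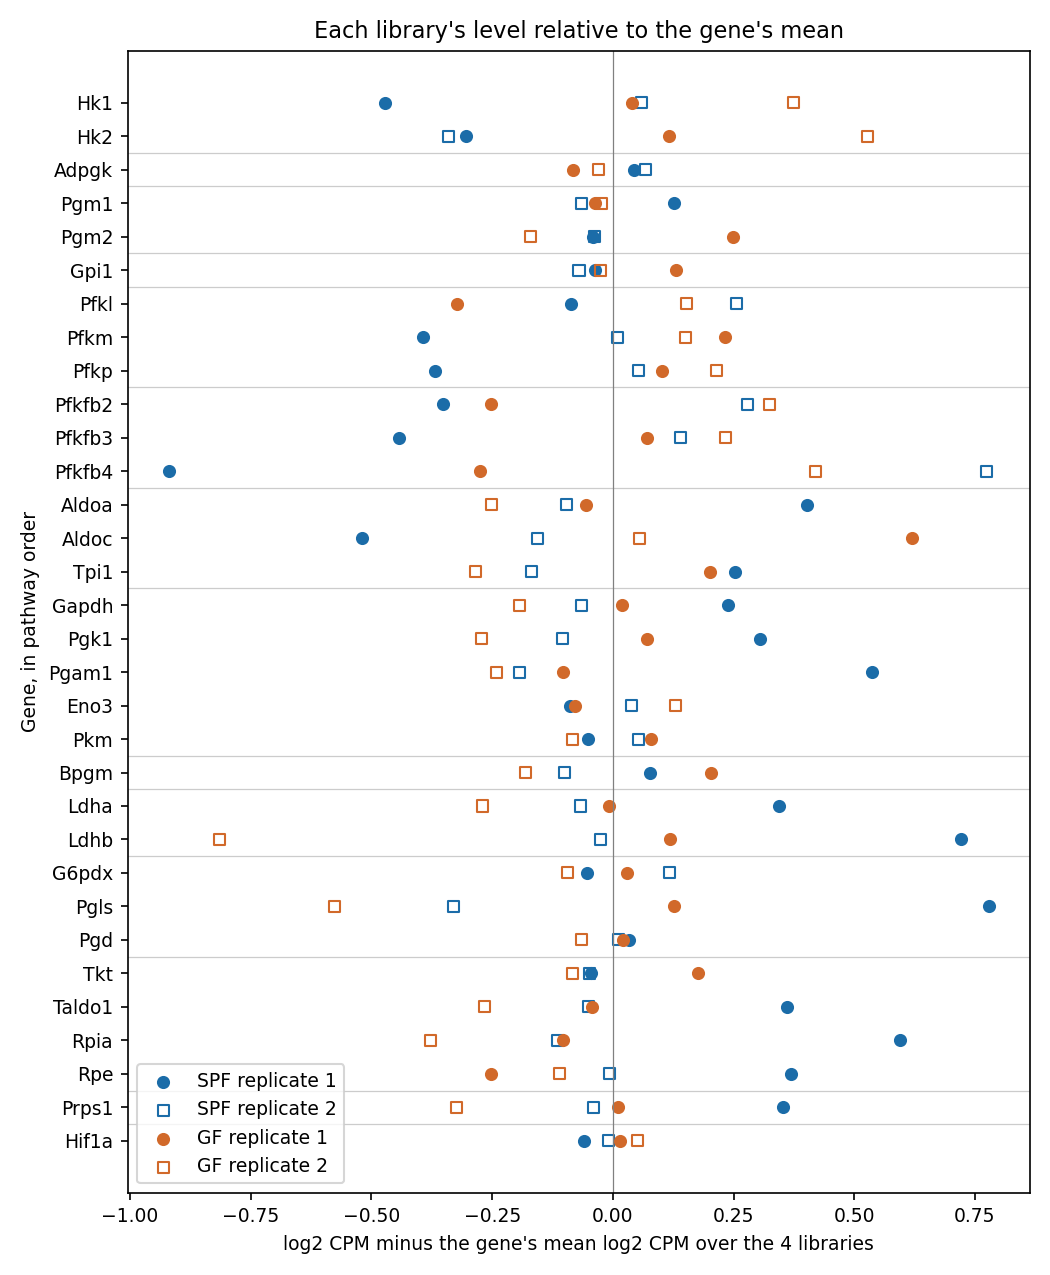
Log2 CPM of each tested member minus its mean over the 4 libraries, in pathway order, with circles for replicates numbered 1, squares for those numbered 2, blue for SPF and orange for GF. SPF replicate 1 (filled blue) is the highest library for 14 of 32 genes, mostly from aldolase onward, and the lowest for 9, mostly hexokinase, phosphofructokinase and Pfkfb genes.

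The early and late steps of glycolysis are given apart here, with no test of their difference. Of the 9 genes from hexokinase through the Pfkfb enzymes, 7 had higher GF means (median log2 fold change 0.28). Of the 10 from aldolase to lactate dehydrogenase, 8 had lower means, with a median of -0.19. Adpgk (log2 fold change -0.11), Bpgm (0.03) and the rows named Pgm1 (-0.06) and Pgm2 (0.09) were in neither group. These groups were formed after the values were seen. The 2 also differed in length, with median exonic lengths of 6675 and 2832 nt, and the 8 pentose phosphate genes had a median of 3442 nt. Differences between libraries followed length across all genes. Spearman's rho with exonic length, over 11189 tested genes that are no replicates of each other, was 0.36 for GF minus SPF, 0.52 for SPF replicate 2 minus 1 and 0.47 for GF replicate 2 minus 1. Over the 32 members it was 0.50, 0.56 and 0.50. With the trend with length removed from each library, the medians were 0.07 for the early steps, -0.09 for the late steps and -0.14 for the pentose phosphate genes. For single genes the log2 fold change then was 0.56 for Hk2, 0.26 for Hk1, 0.07 for Pfkp, -0.27 for Pfkl, 0.42 for Pfkm, -0.59 for Rpia and -0.46 for Pgls. SPF replicate 1 was the highest or lowest library for 23 of 32 members, against 76.2% of all tested genes, and GF replicate 2 for 24 of 32, against 61.4%.

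**Figure D4:**
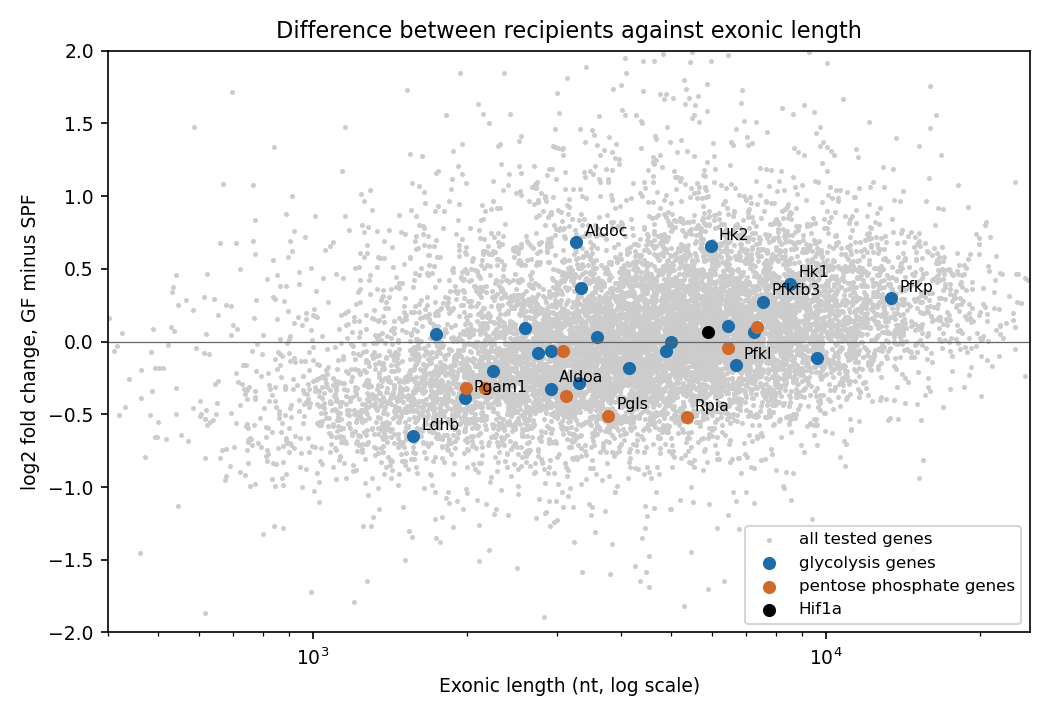
Log2 fold change of GF minus SPF against exonic length (log axis) for all tested genes (grey), glycolysis genes (blue), pentose phosphate genes (orange) and Hif1a (black), with 170 genes outside the plotted range. Among the members rho was 0.50. Ldhb (1570 nt) at -0.65 and Pfkp (13401 nt) at 0.30 follow the trend. Members such as Aldoc (3263 nt) at 0.69 and Pfkl (6675 nt) at -0.16 go against it.

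Beyond the members, 85 genes of the surrounding pathways were tested, and 0 passed the edgeR quasi-likelihood test or DESeq2. By unadjusted p under 0.05 there were 4, and they are named here or with the branch pathways in the closing section. Of 8 tested further isoenzymes and reversing enzymes of glycolysis 5 had higher and 3 lower GF means (median log2 fold change 0.13). Pgam2, the muscle phosphoglycerate mutase, measured 1.31 and 4.38 CPM in SPF and 7.17 and 7.37 CPM in GF, and Gapdhs, the sperm form of Gapdh, 3.67 and 3.96 against 7.72 and 5.58 CPM. Galm, the aldose mutarotase, had 5.92 ± 0.89 and 3.65 ± 1.21 CPM, and Minpp1, an inositol and bisphosphoglycerate phosphatase, was the most abundant at 47.7 ± 11.7 and 39.3 ± 1.7 CPM.

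Of 11 tested further pentose phosphate and ribose genes 3 had higher and 8 lower means, with a median of -0.27. The groups did not overlap for Prps2, another PRPP synthetase, at 114.7 and 102.9 CPM in SPF and 76.6 and 79.6 CPM in GF, with a log2 fold change of -0.48 (SE 0.20). Prps1l3, a close relative, measured 126.3 and 107.3 CPM in SPF and 87.5 and 86.7 CPM in GF. Of the 50-base stretches of the Prps1 transcript 10.1% also occur in other genes, mostly Prps1l3. H6pd, which runs the oxidative steps in the endoplasmic reticulum, measured 28.7 and 55.0 CPM in SPF and 57.9 and 62.2 CPM in GF. The SPF spread of H6pd was larger than the gap between the groups. Prps1, Prps2 and Prps1l3 thus all had lower means in GF, as had 50.3% of all tested genes, and none passed the edgeR test. Prps2 and Prps1l3 were named for their small unadjusted p in this comparison, so the shared direction is no separate support.

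Of 13 tested genes of glucose, lactate and pyruvate exchange 6 had higher and 7 lower means, with a median of -0.04. Slc2a3, the glucose transporter GLUT3, was the most abundant at 168.3 and 232.6 CPM in SPF and 208.5 and 274.4 CPM in GF, which overlap. Pdk2, a pyruvate dehydrogenase kinase, measured 5.77 and 6.15 CPM in SPF and 12.2 and 10.4 CPM in GF. Its log2 fold change was 0.92 (SE 0.29), with unadjusted p = 0.0227 and adjusted p = 0.855 in the edgeR test. Mpc2, of the mitochondrial pyruvate carrier, and Bsg, the partner of lactate transporters, differed by -0.65 (SE 0.45) and -0.41 (SE 0.29) on the log2 scale.

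Of 17 tested partners and regulators of HIF 8 had higher and 9 lower means, and of 16 HIF targets outside glycolysis 8 and 8, with medians of -0.03 and -0.04. Ddit4, an mTORC1 inhibitor induced by hypoxia, measured 55.4 and 40.8 CPM in SPF and 138.3 and 78.4 CPM in GF, a log2 fold change of 1.17 (SE 0.35; unadjusted p = 0.0181). Plin2, a lipid droplet coat protein, went the other way at 15.5 and 14.1 CPM in SPF and 7.58 and 5.87 CPM in GF, a log2 fold change of -1.14 (SE 0.29; unadjusted p = 0.0103). P4ha1, a collagen prolyl hydroxylase subunit, measured 43.8 ± 2.5 and 30.4 ± 3.7 CPM. Among the 16 tested targets the groups did not overlap for 7, 3 with GF above (16.8% of all tested genes) and 4 with GF below (16.4%). The abundant target Bnip3l, a mitophagy receptor, measured 219.96 ± 4.44 and 205.8 ± 6.4 CPM. Among the regulators, the elongin genes Tceb1 and Tceb2 and Rbx1, all parts of the ligase that marks HIF for degradation, gave log2 fold changes of -0.77 (SE 0.40), -0.59 (SE 0.39) and -0.54 (SE 0.37). The coactivator gene Ep300 had 0.56 (SE 0.52). Without SPF replicate 1 the edgeR test called Ddit4 alone among the genes of these lists, against 0.147% of all tested genes. Without SPF replicate 2 it called 11 of them, 4 higher and 7 lower, against 11.5% of all tested genes. H6pd, Pgam2, Mpc2, Gnpnat1, Tceb1, Tceb2, Rbx1, Ep300 and Ddit4 were among those 11, with Mif and Higd1a (chosen after their values were seen).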

How the data were processed

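Whole-number read counts per gene symbol were used as the authors deposited them, not normalized, with 1 column per library. The submitters' processing notes name mm10 as the build, and CASAVA, TopHat, Picard, Subread, featureCounts and edgeR as tools, with versions, settings and annotation not given in the sources used here.

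TruSeq RNA libraries, named in the labels' protocols, do not mark strand. The test was edgeR 4.0.16 in R 4.3.3 (TMM scaling, filterByExpr, quasi-likelihood F test, two-sided, Benjamini-Hochberg over 11271 genes, threshold 0.05, no covariates), and SE is the log2 fold change over the square root of F. CPM uses the TMM-scaled total of tested genes, marker sums the plain total. DESeq2 1.42.0 and limma 3.58.1 served as alternatives, beside other scaling and filters, a replicate block, removal of the length trend (lowess span 0.3, prior count 2) and each library left out. Lengths and positions came from GENCODE M21 (GRCm38, the assembly of mm10), which matched 98.3% of rows, 907 of them through RefSeq synonyms, and promoters from RefSeq. Genes were named by a rule: all members, up to 3 genes of smallest p and the most abundant of each other list, and the most abundant marker; 1 gene that the rule names is not reported here. Members and lists were chosen with earlier results of these data known. Replicates differed by more than sampling noise (chi-square per degree of freedom of 89.2 in SPF and 43.9 in GF). Comparing SPF with GF at a shared replicate number gave 56.4 (replicate 1) and 18.4 (replicate 2). The value within SPF was above both of these, and that within GF was above only 18.4. The fits were tested on simulated counts. Figures were drawn with matplotlib 3.10.9.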

Additional observations from a re-analysis of the deposited data

How the results depend on the processing

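The member count of 0 calls stayed 0 under the other scalings and filters, DESeq2 and limma-voom, and their median log2 fold change stayed below 0. The replicate numbers share no stated origin, so pairing was tried only here: differences between replicates correlated across 11271 genes (Pearson 0.71). The replicate block called 0 members (smallest adjusted p 0.0601), 1206 genes in all (10.7%) against 0, and 11 genes of the other pathway lists (Tceb1, Tceb2, P4ha1, Ddit4, Mif, Pgam2, Pdk2, Ep300, Pygm, Plin2 and H6pd). With the replicate block and the length trend removed, 1 member (Rpia, lower, adjusted p 0.0231) and 13 genes of the other lists were called, with 10.8% of all genes. Mpc2, Rbx1, Gapdhs, Prps2 and Narf joined the other lists' calls there, and Tceb2, Mif and Ep300 left them. Leaving out each library gave 0 to 1 member calls, 0 to 11 other calls, a member median from -0.0891 to 0.0036 (above 0 without SPF replicate 1) and a Hk2 share difference from -0.365 to 3.05 points (below 0 without SPF replicate 2). In the same fits the log2 fold change turned sign for 14 members, with ranges of Pfkl -0.4204 to 0.0547, Pfkfb2 -0.2528 to 0.4112, Pfkfb4 -0.6575 to 1.0196, Tpi1 -0.3441 to 0.1478, Pgk1 -0.401 to 0.0145, Pgam1 -0.7146 to 0.0248, Eno3 -0.0579 to 0.1509, Pkm -0.0874 to 0.0739, Bpgm -0.1742 to 0.2085, Pgm1 -0.1637 to 0.0354, Pgm2 -0.1339 to 0.2841, G6pdx -0.1481 to 0.0159, Pgls -0.9674 to 0.149 and Tkt -0.039 to 0.2207. With the length trend removed the signs turned for Pfkfb2 (-0.047), Tpi1 (0.0352), Pgm1 (0.0376), G6pdx (0.0074), Tkt (-0.0218) and Hif1a (-0.0184), and with the block added these were -0.0481, 0.0289, 0.0359, 0.0186, -0.0313 and -0.0175. Pfkfb4 turned to 0.0821 with limma-voom, 0.0371 with the block and 0.002 with block and length, and Pkm to 0.0012 with RLE scaling or DESeq2 and 0.0019 with a filter of at least 1 CPM. The cause of these turns was not tested. The counts behind Ldhb (8 to 19) and Pfkfb4 (11 to 44) limit their precision.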

Other observations

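Side branches leave glycolysis toward glycogen, hexosamines, serine and glycerol. Of 20 tested genes of these branches 8 had higher and 12 lower GF means (median log2 fold change -0.03), and 0 passed the edgeR quasi-likelihood test or DESeq2. Pygm, the muscle form of glycogen phosphorylase, measured 6.73 and 6.22 CPM in SPF and 15.2 and 11.6 CPM in GF, a log2 fold change of 1.05 (SE 0.30; unadjusted p = 0.0159, adjusted p = 0.855, edgeR). It was the one gene of this list with an unadjusted p under 0.05. In the hexosamine branch, Gnpnat1, a glucosamine phosphate acetyltransferase, measured 52.0 and 27.9 CPM in SPF and 26.2 and 28.3 CPM in GF, so that SPF replicate 1 alone stood apart. Gpd1l, a glycerol phosphate dehydrogenase, was the most abundant at 154.7 ± 13.7 and 167.4 ± 1.2 CPM (SD, n = 2 each). For Pygm both GF libraries were above both SPF libraries.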
